A study of Mus musculus with 2 samples.

Results

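Ltbp2-Cyp26a1-Comp cells are fibroblasts of the mouse choroid in which transcripts of Ltbp2, Cyp26a1 and Comp outnumbered the marker transcripts of the 6 other fibroblast subsets. They were 2289 of 10664 fibroblasts and of 21898 cells in all. A barcode counted as a cell with 1000 UMIs or more (unique molecular identifiers, each counting 1 captured transcript), 500 genes or more and no more than 20% of UMIs from mitochondrial genes. A fibroblast had at least 10 UMIs in the sum of Col1a1, Col1a2, Col3a1, Dcn and Lum. It also had at most 2 UMIs in the sum of Cdh5, Ptprc, Sox10, Higd1b and Myh11, genes of endothelial cells, leukocytes, Schwann cells and mural cells. It was then placed in the subset whose marker sum was strictly the largest and at least 3 UMIs, which for these cells was Ltbp2 + Cyp26a1 + Comp. The cells were thus selected on the measured counts of these genes.

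The tissue was the choroid together with the retinal pigment epithelium (RPE), taken at 8 weeks of age from wild-type mice of the ICR strain and profiled as droplet single-cell 3′ RNA in 2 libraries, WT1 and WT2. Each library was a separate pool of 1 male and 1 female mouse, and the animals and sexes within a library were not separated here. Eyes were dissociated with collagenase for 2 h and trypsin for 30 min before cells were captured. There was 1 group and no treatment, so the comparisons below are between kinds of cell within the same libraries.

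Retinoic acid, made from vitamin A by retinol and retinaldehyde dehydrogenases, acts through nuclear retinoic acid receptors, and in chick eyes the choroid is known as a source of it. Cyp26 enzymes are cytochromes P450 that break retinoic acid down, and Cyp26a1 is itself a textbook target gene of the receptors. Ltbp2 (latent transforming growth factor beta binding protein) is a protein of elastic microfibrils, and Comp (cartilage oligomeric matrix protein) is a pentameric thrombospondin that binds collagen in cartilage and tendon.

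Cyp26a1 lies at chr19:37697798-37701536 on the plus strand of mm10 (GENCODE annotation), Ltbp2 at chr12:84783212-84876532 on the minus strand and Comp at chr8:70373558-70382066 on the plus strand. The stretch just before the Cyp26a1 start and a stretch before the start of Rarb, the gene of a retinoic acid receptor, are shown because both hold a direct repeat of the hexamers that these receptors are known to bind (RefSeq promoters, GRCm38.p6, 5′ to 3′ on the gene's strand, hexamers in capitals).
Cyp26a1, chr19:37697716-37697797, plus strand: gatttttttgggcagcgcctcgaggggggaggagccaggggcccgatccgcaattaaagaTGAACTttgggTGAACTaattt
Rarb, chr14:16575507-16575535, minus strand: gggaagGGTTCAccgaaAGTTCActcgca
The hexamers searched were AGGTCA in its canonical form, AGTTCA as a second form, GGGTCA as another and GGTTCA as the last. Any 2 of them had to lie in the same direction with 5 bases between them, on either strand of windows from 250 bases before to 50 bases after a gene's start. In Cyp26a1 both hexamers read AGTTCA on the opposite strand, and the repeat begins 32 bases before the RefSeq start, which is not the GENCODE start given above. In Rarb it reads GGTTCA followed after the spacer by AGTTCA on the gene's strand and begins 53 bases before the RefSeq start. Such a repeat was in 32 of 32851 promoters (0.0974%). Of 24 genes looked up (the retinoic acid list, Ltbp2 and Comp), 18 matched a promoter entry and these 2 held the repeat. The windows of Cyp26b1 and Ltbp2 did not hold these letters, which says nothing of other sequences or of more distant sites. The RNA data hold no measurement of binding.

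The deposited counts summed to 91741168 UMIs in WT1 and 149570817 UMIs in WT2, with 8497 and 13401 cells kept, and per-cell medians of 7842 and 8253 UMIs. The libraries shared 31 cell barcodes among all cells and 0 among Ltbp2-Cyp26a1-Comp cells. Scrublet called 217 cells (2.55%) in WT1 and 700 cells (5.22%) in WT2 doublets. Among Ltbp2-Cyp26a1-Comp cells it called 20 (2.63%) and 79 (5.17%), and these cells were kept in the values given here.

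In WT1, 760 of 4177 fibroblasts were Ltbp2-Cyp26a1-Comp cells, which is 18.19% (exact 95% binomial interval, 17.04 to 19.4%). In WT2 they were 1529 of 6487 fibroblasts, or 23.57% (22.54 to 24.62%). The share averaged 20.88% ± 3.8 (SD, n = 2 libraries), and the 2 intervals did not overlap. Such intervals take in counting error alone. Among the subsets, only Tfpi2-Tcf21-Alpl was larger, at 24.2% and 27.07% of fibroblasts. The subset next below was Cxcl5-Csf3-Il11, at 13% and 12.09%. Fibroblasts placed in no subset numbered 855 in WT1 (20.47%) and 1180 in WT2 (18.19%). In WT1 this unplaced group was larger than Ltbp2-Cyp26a1-Comp cells, and in WT2 it was smaller. Unplaced fibroblasts are not part of the means of the other subsets given below. Of all cells, Ltbp2-Cyp26a1-Comp cells were 8.944% in WT1 and 11.41% in WT2. They were also the most deeply captured subset, with medians of 13802.5 and 13642 UMIs per cell, against 5605 to 12326 UMIs in the other subsets. With every fibroblast thinned to 3000 UMIs, the share was 15.5% (mean of the libraries), so part of the share moves with depth.

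The 3 genes of the sum were not found together in every cell. Cyp26a1 was detected in 81.3% of Ltbp2-Cyp26a1-Comp cells in WT1 and 75.6% in WT2, Comp in 70.9% and 76.2%, and Ltbp2 in 62.6% and 78.8%. All 3 were detected in 38.2% and 47.5% of the cells, and a single one in 23.3% and 16.9%. Their summed count had a median of 22 UMIs in both libraries, with 10th percentiles of 5 and 5.8 UMIs and 90th percentiles of 74 and 72.2 UMIs. Within the subset the log counts of Cyp26a1 and Comp had a Pearson r of -0.23 over 760 cells and -0.083 over 1529 cells. Over all fibroblasts the same r was 0.36 (4177 cells) and 0.43 (6487 cells). Both genes were used to choose the cells, which fixes part of this pattern, and the cells of a library share its depth and free RNA.

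The boundary of the subset was not sharp. Another subset's marker sum also reached 3 UMIs in 75.7% of Ltbp2-Cyp26a1-Comp cells in WT1 and 70.6% in WT2. This was most often the Angptl7-Cilp2-Cnmd sum (35.3% and 31.5% of cells) and least often the Tfpi2-Tcf21-Alpl sum (7.37% and 6.28%). In 72.4% and 78.8% of the cells the Ltbp2 + Cyp26a1 + Comp sum was at least 2 times the next sum. Just inside the threshold, cells with a sum of exactly 3 UMIs (21 and 35 cells) had 359.2 and 157.6 CPM of Chad, where CPM is UMIs of a gene per 1000000 UMIs summed over the cells. Just outside, cells whose largest sum was 2 UMIs of these genes (25 and 40 cells) had 231.3 and 213.1 CPM of Chad. The cells just inside were higher in WT1 and lower in WT2 than those just outside. Another 34 and 60 fibroblasts had 3 or more UMIs of these genes but tied with another subset, and in 502 and 643 another sum was larger.

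Levels below are CPM of the summed cells of a subset in 1 library, and log2 folds carry a pseudocount of 1 CPM. Each fold sets Ltbp2-Cyp26a1-Comp cells over the mean CPM of the other 6 subsets, given as the mean ± SD of the 2 libraries. A gene is called higher or lower where the fold was at least 2 in that direction in both libraries. Because cells were sorted by transcripts counted in the same cells, differences between subsets are described without a test. The SDs measure only the spread between 2 pools.

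The label of these cells names 5 markers. Cyp26a1, which the rule used, was at 817 and 532 CPM in Ltbp2-Cyp26a1-Comp cells of WT1 and WT2, against 83.4 and 71.0 CPM in the mean of the other subsets (log2 fold 3.08 ± 0.28). Comp, also used, was at 1286 and 1390.1 CPM against 205 and 204 CPM (2.71 ± 0.08), and Ltbp2 at 193 and 355 CPM against 43.0 and 62.3 CPM (2.32 ± 0.25). Each of these was above every other subset in both libraries, as the rule makes likely. The remaining pair of markers was outside the rule. Chad (chondroadherin, a leucine-rich protein of cartilage matrix) was at 1158 and 976 CPM, against 479 and 353 CPM in the other subsets (1.37 ± 0.14). In Angptl7-Cilp2-Cnmd cells Chad was higher still, at 1325 and 1146 CPM. Col12a1 (a collagen that coats collagen I fibrils) was at 1320.3 and 2958 CPM, against 689.7 and 1437 CPM (0.99 ± 0.07), just under the threshold in WT1. It was also higher in Angptl7-Cilp2-Cnmd cells, at 2207 and 5036 CPM.

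The word matrix-rich in the label did not hold as a rank above every other subset. Chad and Col12a1, outside the rule, were higher in Angptl7-Cilp2-Cnmd cells. Col1a1, the main fibrillar collagen chain and a gene of the fibroblast sum, was at 3814 and 3409 CPM in Ltbp2-Cyp26a1-Comp cells, against 12907 and 13624 CPM in Angptl7-Cilp2-Cnmd cells. In Tfpi2-Tcf21-Alpl, Crabp2-Ephb1-Nrk and Cxcl5-Csf3-Il11 cells Col1a1 was lower, at 467.5 to 1409.9 CPM. Against the mean of the other 6 subsets its log2 fold was -0.32 ± 0.15. The summed level of 6 fibroblast markers was 26513 and 25327 CPM in Ltbp2-Cyp26a1-Comp cells and ran from 7182 to 69517 CPM in the other subsets. All of these markers but Pdgfra were used by the rule to choose fibroblasts. The cells are therefore called here by the genes that chose them.

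**Figure D1:**
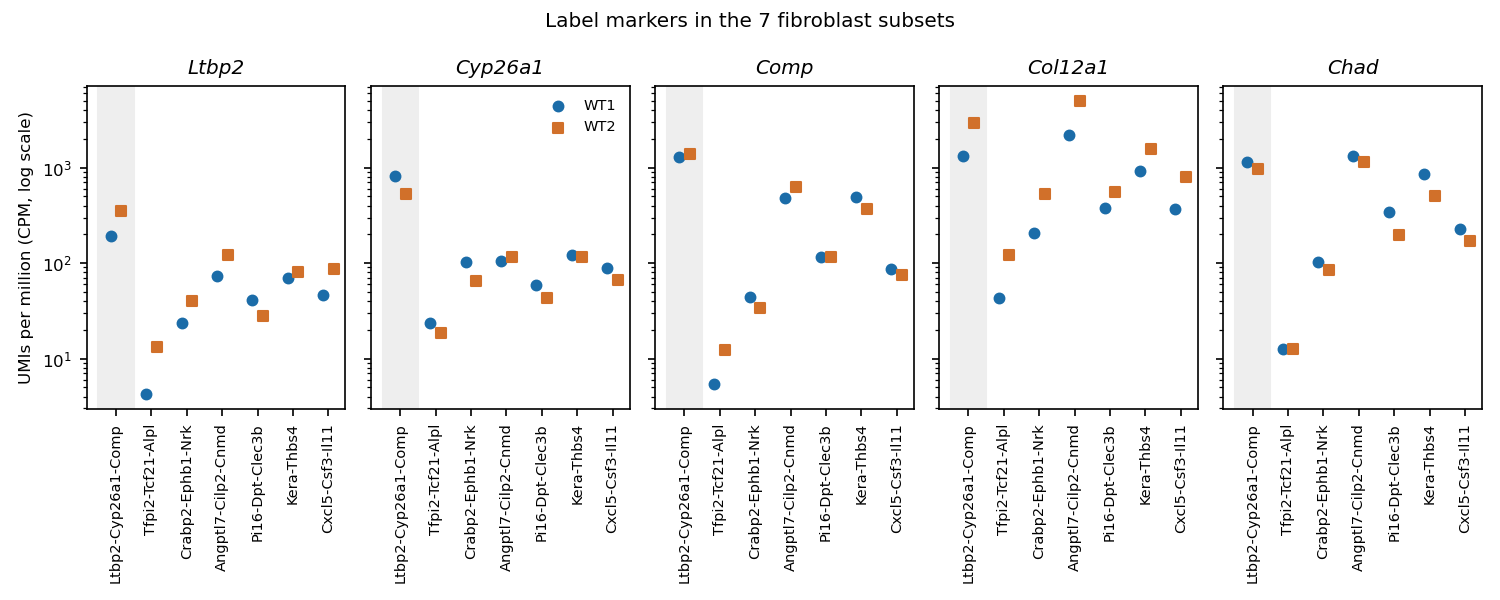
CPM (log axis) of the 5 label markers in each of the 7 fibroblast subsets, 1 point per library, with Ltbp2-Cyp26a1-Comp cells shaded at the left. Ltbp2, Cyp26a1 and Comp, which chose the cells, were highest there in both libraries, while Col12a1 and Chad were higher in Angptl7-Cilp2-Cnmd cells.

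Shares of macrophages with a UMI of the label markers show the background of free RNA. With cells thinned to 3000 UMIs, 64.2% and 55.2% of Ltbp2-Cyp26a1-Comp cells had a Cyp26a1 UMI, against 0.831% and 1.49% of macrophages, a type not known for it. For Comp, Ltbp2, Chad and Col12a1 the thinned share of macrophages was at most 5.45%, which was Col12a1 in WT2, where 92% of Ltbp2-Cyp26a1-Comp cells had a UMI. Unthinned, the Cyp26a1 shares were 81.3% and 75.6% against 1.93% and 2.95%, at median depths of 13802.5 and 13642 UMIs in Ltbp2-Cyp26a1-Comp cells and 8666 and 8492.5 UMIs in macrophages. Thinning left out 8 and 10 Ltbp2-Cyp26a1-Comp cells and 54 and 75 macrophages. Cyp26a1 outside the fibroblasts did not exceed 27.6 CPM in any class and library, a level reached in mural cells of WT2.

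Of 9573 genes tested (mean of at least 5 CPM over the 14 subset profiles, leaving out the 30 genes the rule used), 89 were called higher (0.930%) and 428 lower (4.47%). When the reference was the mean of the log2 values of the other subsets in place of the log2 of their mean, 144 were called higher and 164 lower, so the split depends on how the other subsets are averaged. The median log2 fold of all genes was 0.008. In both libraries 147 genes (1.54%) were above every other subset and 70 (0.731%) were below every other subset. Of the 89 genes called higher, 44 were above every other subset, and in 48 the highest of the other subsets was Angptl7-Cilp2-Cnmd, which for some, such as Chad, was above Ltbp2-Cyp26a1-Comp cells. Of the 428 called lower, 23 were below every other subset, and in 250 the highest subset was Tfpi2-Tcf21-Alpl.

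Cyp26b1, which encodes another retinoic acid-degrading P450, stood furthest above the other subsets among the genes outside the rule with at least 50 CPM in these cells. It lies at chr6:84571414-84593908 on the minus strand of mm10. It was at 161.6 and 237.9 CPM in Ltbp2-Cyp26a1-Comp cells of WT1 and WT2, against 29.8 and 54.6 CPM in the mean of the other subsets (log2 fold 2.25 ± 0.21). Every other subset was lower in both libraries, the nearest being Angptl7-Cilp2-Cnmd cells at 80.2 and 136.6 CPM. After thinning, 21.1% and 34.4% of the cells had a Cyp26b1 UMI (43.6% and 58.1% unthinned), against 0.554% and 1.12% of macrophages (1.2% and 2.15% unthinned). Among the other cell classes, endothelial cells had more Cyp26b1, at 749 and 398 CPM.

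Several of the genes furthest above the other subsets encode secreted or membrane-bound signals. Penk (the precursor of enkephalin opioid peptides) was at 2899.5 and 3556 CPM in Ltbp2-Cyp26a1-Comp cells, against 867 and 1120.4 CPM in the other subsets (1.70 ± 0.05). Gdnf (glial cell line-derived neurotrophic factor) was at 156.6 and 284 CPM against 44.9 and 71.7 CPM (1.88 ± 0.13). Both genes were above every other subset in both libraries, and Gdnf was higher only in Schwann cells among the other classes, at 309 and 477 CPM. The next pair was less even between libraries. Dlk1 (a transmembrane protein related to Notch ligands) was at 227 and 133 CPM against 49.8 and 36.4 CPM (2.01 ± 0.23). Wif1 (a secreted inhibitor of Wnt ligands) was at 66.4 and 60.8 CPM against 15.03 and 24.1 CPM (1.68 ± 0.55), and in WT2 the Angptl7-Cilp2-Cnmd cells had more, at 72.4 CPM. A matrix gene was in the group as well. Cthrc1 (a secreted protein of remodelling matrix) was at 298 and 379 CPM against 84.9 and 91.4 CPM (1.92 ± 0.17). It exceeded every other subset in both libraries.

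A pair of contractile genes was in the same group. Acta2 (smooth muscle actin) was at 821 and 677 CPM in Ltbp2-Cyp26a1-Comp cells, against 184 and 208 CPM in the other subsets (1.93 ± 0.32). Tagln (transgelin, an actin-binding protein) was at 751 and 531 CPM against 187.6 and 175 CPM (1.79 ± 0.28). Both were above every other fibroblast subset in both libraries, yet mural cells had far more Acta2, at 3392 and 3179 CPM. Myh11 and Higd1b, which define smooth muscle cells and pericytes and which the rule limits, were at 0.27 and 0.83 CPM and at 0.45 and 0.14 CPM in Ltbp2-Cyp26a1-Comp cells. The summed level of 5 mural markers was 1406 and 1422 CPM there and ran from 170.2 to 1435 CPM in the other subsets, and none of the 5 was at 0 in both libraries. In WT1 this sum was above every other subset, and in WT2 only Cxcl5-Csf3-Il11 cells had more. Of those 5, Acta2 was called higher and Kcnj8 lower. The part of mural RNA in the Acta2 and Tagln levels was not tested beyond leaving out every cell with an Rgs5 or Kcnj8 UMI, which removed 57.1% and 54.9% of Ltbp2-Cyp26a1-Comp cells and left log2 folds of 1.94 for Acta2 and 1.51 for Tagln.

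Of the remaining 6 genes, Tspan6, Prss12 and Tmem255b were above every other subset in both libraries. Tspan6 (a tetraspanin) was at 356 and 346 CPM against 104 and 93.6 CPM (1.82 ± 0.08). Prss12 (the secreted protease neurotrypsin) was at 127.6 and 194.5 CPM against 38.6 and 52.7 CPM (1.78 ± 0.12). Ccn3 (a matricellular protein) was at 124 and 307 CPM against 42.9 and 86.7 CPM (1.66 ± 0.22), a large spread between libraries in its own level. Tmem255b, Nell2 and Hs6st2 had log2 folds of 1.70, 1.66 and 1.56. Of the 14 genes described, Wif1, Ccn3, Nell2 and Hs6st2 were not above every other subset in both libraries.

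**Figure D2:**
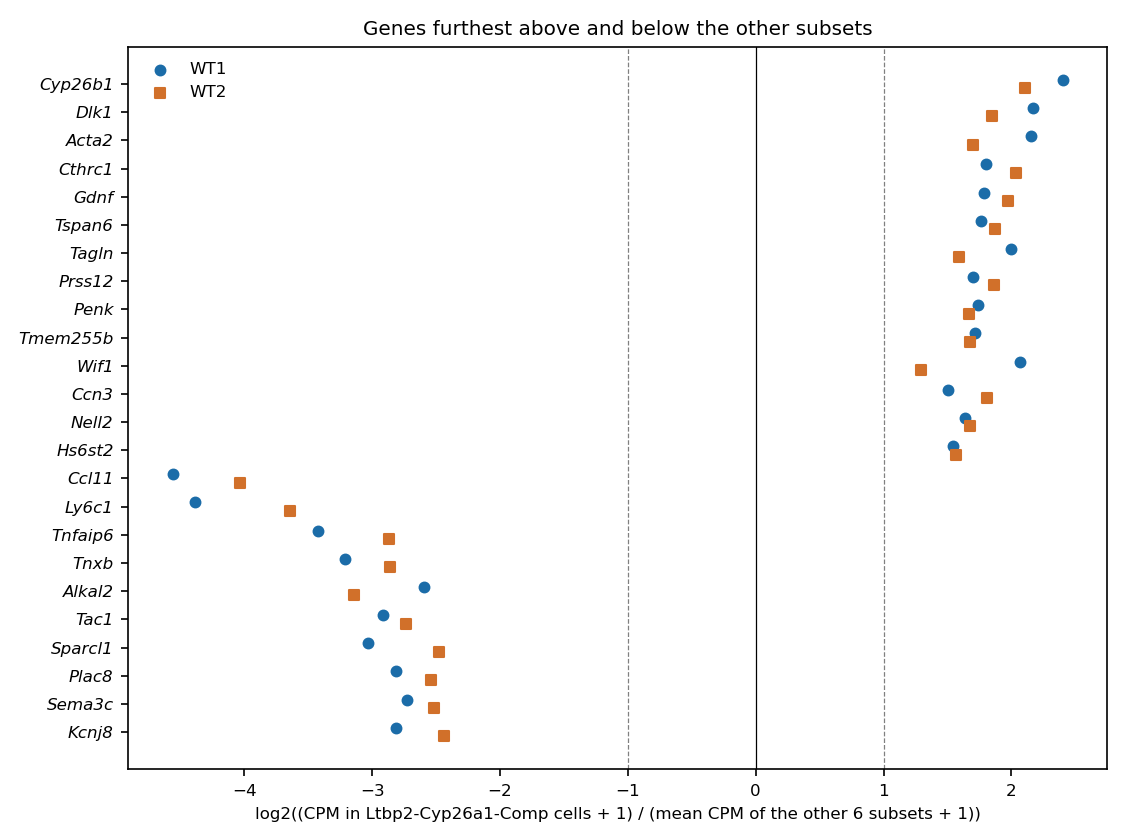
Log2 fold of Ltbp2-Cyp26a1-Comp cells over the mean of the other 6 subsets for 14 genes furthest above and 10 furthest below, 1 point per library, with dashed lines at 2-fold. Both libraries lie beyond 2-fold for every gene by the rule that chose the genes, and Wif1 has the widest gap between libraries among those above.

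Most of the 10 genes furthest below the other subsets were high in 1 or a few of those subsets. Ccl11 (eotaxin, a chemokine for eosinophils) was at 23.8 and 19.8 CPM in Ltbp2-Cyp26a1-Comp cells, against 584 and 340.1 CPM in the other subsets (-4.30 ± 0.37). Its mean in Tfpi2-Tcf21-Alpl cells was 1562 CPM, and Angptl7-Cilp2-Cnmd cells had less than Ltbp2-Cyp26a1-Comp cells, at 11.2 and 2.45 CPM. Ly6c1 (a surface antigen) was at 1.99 and 3.70 CPM against 61.5 and 57.7 CPM (-4.01 ± 0.52), a difference set by the Pi16-Dpt-Clec3b cells with a mean of 346.5 CPM. With the log2 values averaged, the Ly6c1 fold was -0.60. Tnfaip6 (a hyaluronan-binding protein induced in inflammation) was at 59.6 and 83.1 CPM against 648 and 614.5 CPM (-3.15 ± 0.39). Only Angptl7-Cilp2-Cnmd cells had less Tnfaip6, at 34.3 and 37.6 CPM. Tnxb (tenascin-X), Alkal2, Tac1 (the precursor of substance P), Sparcl1, Plac8, Sema3c and Kcnj8 had log2 folds from -3.04 to -2.63. Sema3c, a guidance semaphorin, was the one gene of the 10 below every other subset in both libraries, at 7.51 and 13.1 CPM.

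In the retinoic acid pathway the breakdown enzyme Cyp26b1 was higher, beside Cyp26a1, which the rule used. Of the enzymes of synthesis some were lower and none was called higher. Of 17 genes of this list tested, 1 was called higher (Cyp26b1) and 3 lower (Aldh1a3, Rdh10 and Rbp4), against 0.930% and 4.47% of all genes. The median log2 fold of the list was -0.42, beside 0.008 for all genes. Rdh10, the retinol dehydrogenase of the first oxidation step, was at 40.3 and 50.2 CPM in Ltbp2-Cyp26a1-Comp cells, against 176.4 and 269 CPM in the other subsets (-2.25 ± 0.21). Its mean was 534 CPM in Tfpi2-Tcf21-Alpl cells, and Angptl7-Cilp2-Cnmd cells had less than Ltbp2-Cyp26a1-Comp cells, at 24.3 and 40.1 CPM. Aldh1a3, a retinaldehyde dehydrogenase, was at 3.26 and 1.48 CPM against 15.4 and 14.1 CPM (-2.27 ± 0.47). Aldh1a2, which catalyses the same step, was at 59.2 and 71.8 CPM against 102.8 and 158 CPM (-0.96 ± 0.24) and was not called. Aldh1a1 was at 44.3 and 67.6 CPM against 44.8 and 61.1 CPM (0.07 ± 0.11), so the groups differed by less than the spread. It was highest in Angptl7-Cilp2-Cnmd cells, at 106.0 and 151.3 CPM.

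Of the carriers and receptors named here, Rbp4 was called lower. Rbp4, the plasma retinol carrier, was at 5.88 and 5.59 CPM in Ltbp2-Cyp26a1-Comp cells against 24.8 and 14.3 CPM in the other subsets (-1.56 ± 0.49). Rarb, itself induced by retinoic acid in many tissues, was at 15.4 and 12.6 CPM against 23.7 and 25.6 CPM (-0.78 ± 0.27) and was not called. Rarres1, named for its response to a retinoid receptor ligand, was at 20.4 and 23.8 CPM against 9.83 and 10.5 CPM (1.04 ± 0.09), just short of 2-fold in WT1, although it was above every other subset in both libraries. Outside the fibroblasts, Aldh1a2 was at 131.6 and 181 CPM in mural cells.

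**Figure D3:**
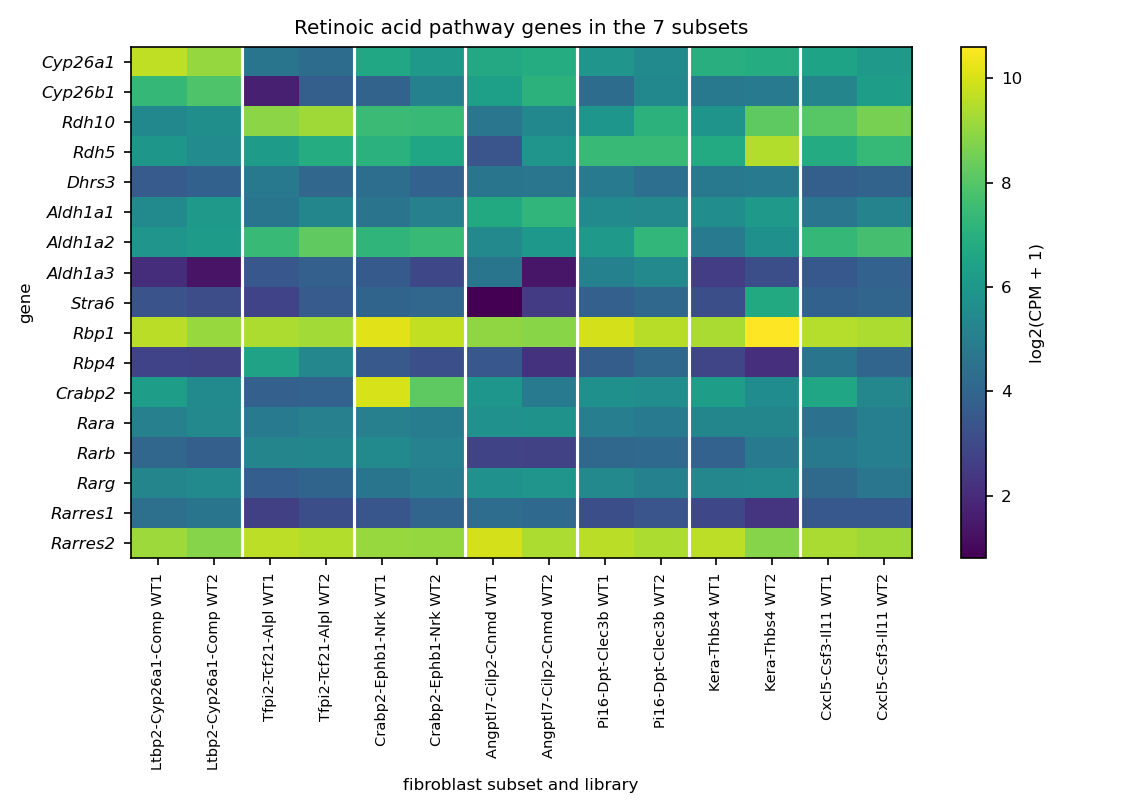
Heat map of log2(CPM + 1) of 17 genes of the retinoic acid pathway in each subset and library, with Ltbp2-Cyp26a1-Comp cells in the left pair of columns. The Cyp26a1 and Cyp26b1 rows are brightest in those columns and the Rdh10 row is brightest in Tfpi2-Tcf21-Alpl cells. Cyp26a1 and Crabp2 were used to choose cells.

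The cartilage and tendon matrix list held the most genes called higher. Of 17 tested, 6 were called higher (Chad, Tnmd, Thbs1, Tnc, Ecrg4 and Ccn5) and 3 lower (Matn2, Cilp and Prg4), against 0.930% of all genes higher and 4.47% lower. The median log2 fold of the list was 0.38. Tnmd (tenomodulin, a membrane protein of tendon) was at 1197 and 1277 CPM in Ltbp2-Cyp26a1-Comp cells against 478 and 440.0 CPM in the other subsets (1.43 ± 0.15). In Kera-Thbs4 cells Tnmd averaged 1208.5 ± 181.5 CPM, a range that takes in both values of Ltbp2-Cyp26a1-Comp cells. Thbs1 (thrombospondin, an activator of latent TGF-beta) was at 2783 and 4058 CPM against 1218 and 1739 CPM (1.21 ± 0.02). Prg4 (lubricin, which coats cartilage and tendon surfaces) was at 54.4 and 51.7 CPM against 185.0 and 222 CPM (-1.91). Cilp (a cartilage intermediate layer protein) was at 2.26 and 1.62 CPM against 18.5 and 22.8 CPM (-2.88). Kera-Thbs4 cells had the most of both (means of 770 and 77.7 CPM), and neither gene was below every other subset. With log2 values averaged, the Prg4 fold was -0.73. Col2a1, the collagen of cartilage, was at 1.18 and 1.25 CPM. The sum of 9 chondrocyte markers was 248 and 245 CPM, and none of those tested was called higher. Most of that sum was Sox9, at 220.8 and 211.6 CPM, which was highest in Crabp2-Ephb1-Nrk cells (mean of 401.7 CPM). Its member Cnmd is used by the Angptl7-Cilp2-Cnmd rule. Acan (aggrecan, the main proteoglycan of cartilage), under the 5 CPM filter and so not tested, was at 9.23 and 16.2 CPM against 3.17 and 2.51 CPM (1.79 ± 0.71), above every other subset in both libraries. The marker sum lay within 157.2 to 430.5 CPM in the other subsets. The sum of 6 tenocyte markers was 3638 and 4004 CPM, below the 8386 and 7013 CPM of Kera-Thbs4 cells, whose rule uses a pair of those markers.

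The elastic fibre list, to which Ltbp2 belongs, was centred near 0. Of 24 tested, 1 was called higher (Fbln5) and 4 lower (Emilin2, Tgm2, Efemp1 and Fbn1), against 0.930% of all genes higher and 4.47% lower. The median log2 fold of the list was 0.11. Fbln5 (fibulin-5, needed for elastic fibre assembly) was at 560 and 640.5 CPM in Ltbp2-Cyp26a1-Comp cells against 256.6 and 281.5 CPM (1.15 ± 0.04), and was above every other subset in both libraries. Lox (lysyl oxidase, which crosslinks collagen and elastin) was at 1241 and 1523 CPM against 637 and 734 CPM (1.01 ± 0.06), short of 2-fold in WT1. Fbn1 (fibrillin-1, the backbone of microfibrils) was at 85.3 and 135.3 CPM against 180.1 and 282 CPM (-1.06). Its mean in Pi16-Dpt-Clec3b cells was 759 CPM. Emilin2 passed the filter through the same subset, at 85.3 and 119.4 CPM there.

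Other matrix lists gave few calls, again against 0.930% of all genes higher and 4.47% lower. None of the 23 genes of collagen maturation was called in either direction (median 0.16), nor was any of the 10 Hedgehog pathway genes (0.12). Of 7 fibrillar collagens tested, 0 were called higher and 2 lower (Col11a2 and Col2a1; median -0.27), both of which passed the filter through Kera-Thbs4 cells and were at -0.92 and -0.53 with log2 values averaged, and of 17 FACIT and network collagens 1 was called higher (Col8a2) and 4 lower (0.11). Among 9 small leucine-rich proteoglycans, Prelp and Omd were called higher and Epyc lower (0.71), but Prelp and Omd had means of 922 and 301 CPM in Angptl7-Cilp2-Cnmd cells, above their means of 908 and 243 CPM in Ltbp2-Cyp26a1-Comp cells. Of 22 matrix proteases and inhibitors, 2 were called higher, Prss23 among them, and 4 lower (Adamts1, Adamts4, Adamts9 and Htra3; -0.08). Of 8 mineral and bone genes, 1 was called higher (Ank) and 2 lower (Phex and Spp1; 0.24).

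Signalling lists were split, and their counts stand against 0.930% of all genes higher and 4.47% lower. In the Wnt list, 5 of 27 were called higher (Wif1, Rspo2, Nkd2, Sost and Sostdc1) and 5 lower (Wnt2, Wnt4, Wnt9a, Sfrp4 and Rspo3), with a median of -0.02. Of the 5 higher, Wif1, Sost, Sostdc1 and Nkd2 are known as inhibitors of Wnt signalling and Rspo2 as an enhancer. Sostdc1 was at 95.4 and 136.7 CPM in Ltbp2-Cyp26a1-Comp cells against 39.98 and 64.9 CPM (1.15 ± 0.12), and Sost (sclerostin) at 14.3 and 17.4 CPM against 3.96 and 5.54 CPM (1.56 ± 0.09). Sost averaged 4.75 CPM in the other subsets, under the filter of 5 CPM, and so passed it through Ltbp2-Cyp26a1-Comp cells. In the TGF-beta and BMP list, 3 of 33 were called higher, Inhba and Nog among them, and 5 lower (Tgfbr3, Tgfbi, Bmp3, Smoc2 and Bmpr1b; median 0.03). Bmp3 passed the filter through Pi16-Dpt-Clec3b cells and was at -0.87 with a pseudocount of 5 CPM. Nog (noggin, a secreted BMP antagonist) was at 83.8 and 121.3 CPM against 34.5 and 40.1 CPM (1.42 ± 0.22) and above every other subset in both libraries. Of 37 growth factors and guidance cues, 3 were called higher (Igfbp2, Svep1 and Gdnf) and 5 lower (Angptl1, Cxcl12, Hgf, Bdnf and Sema3c; -0.08). Of 25 genes of mechanical load and integrins, 3 were called higher (Acta2, Tagln and Piezo2) and 1 lower (Ankrd1; 0.34). Ankrd1 passed the filter through Kera-Thbs4 cells and was at -0.96 with log2 values averaged.

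A pair of lists lay furthest below the other subsets. Of 18 cytokine and interferon-induced genes, 0 were called higher and 12 lower, against 0.930% of all genes higher and 4.47% lower, with a median of -1.65. The Cxcl5-Csf3-Il11 subset, 1 of the 6 in the mean, was chosen on cytokines. Cxcl1, a neutrophil chemokine, was at 215 and 149.2 CPM in Ltbp2-Cyp26a1-Comp cells against 1096 and 721 CPM (-2.31 ± 0.06). Cxcl10, an interferon-induced chemokine, was at 113.5 and 85.3 CPM against 485 and 599 CPM (-2.44 ± 0.50), with a mean of 1531 CPM in Tfpi2-Tcf21-Alpl cells. Of 9 adventitial genes 7 were called lower (-2.11), which follows in part from the Pi16-Dpt-Clec3b rule. Of 39 mesenchymal transcription factors, 0 were called higher and 7 lower (Osr1, Osr2, Ebf2, Tbx18, Tbx15, Eya1 and Meox2; -0.15), so no factor on that list marked Ltbp2-Cyp26a1-Comp cells by a 2-fold excess. Ebf2 passed the filter through Pi16-Dpt-Clec3b cells, at 47.4 and 66.2 CPM there. Of 23 immediate early and heat shock genes, none was called, with a median of -0.34.

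**Figure D4:**
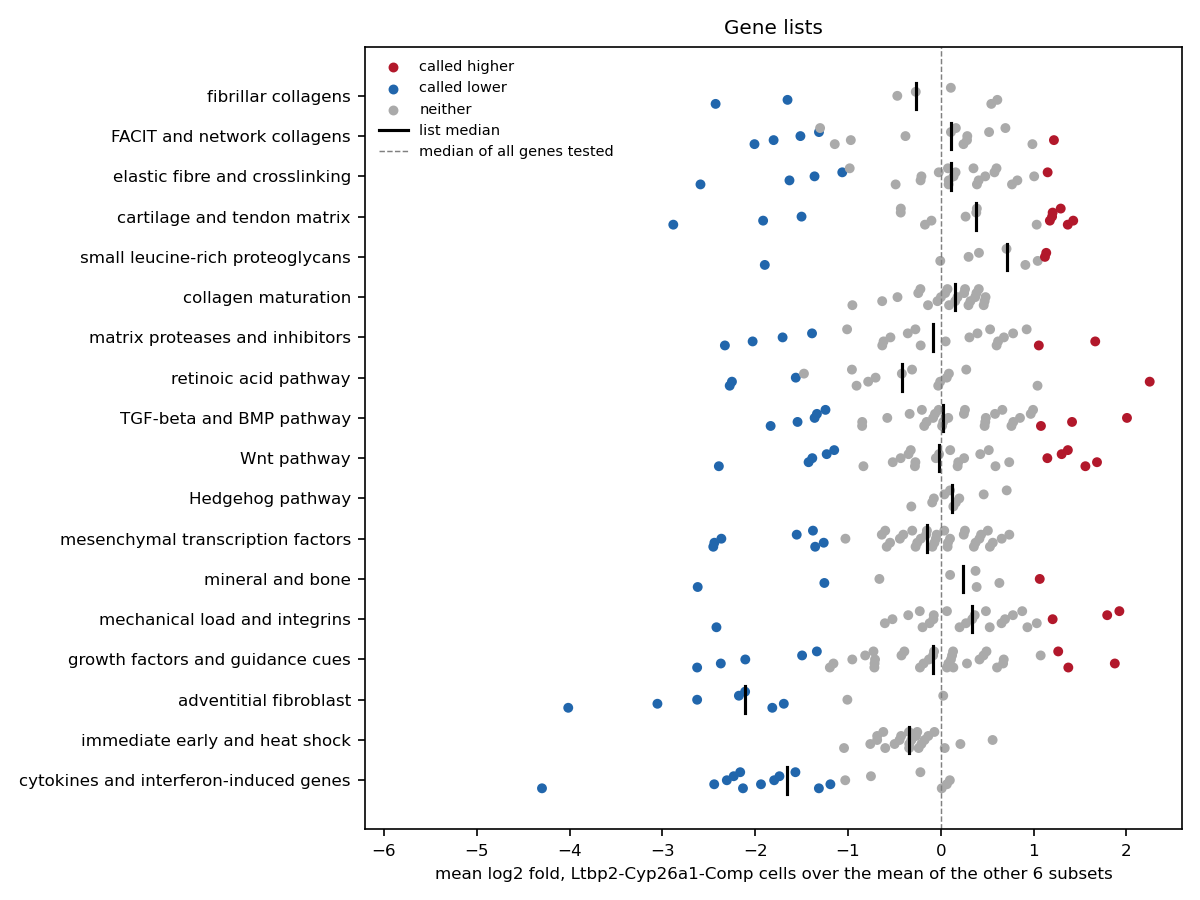
Mean log2 fold of Ltbp2-Cyp26a1-Comp cells over the mean of the other 6 subsets for each tested gene of 18 lists, red called higher, blue called lower, grey neither, with a black bar at the list median and a dashed line at the median of all genes. Cytokines and interferon-induced genes and adventitial genes lie lowest, with medians of -1.65 and -2.11, and small leucine-rich proteoglycans highest, at 0.71.

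Marker sums of the cell types below lay within the range of the other subsets over both libraries. The sum of 4 endothelial markers was 67.7 and 60.3 CPM, against 11.2 to 458 CPM in the other subsets, and that of 5 macrophage markers 61.8 and 76.9 CPM, against 50.5 to 150.8 CPM. The sum of 4 RPE markers was 101.7 and 115.7 CPM, against 9.70 to 2152 CPM, and that of 4 melanocyte markers 514 and 662 CPM, against 224 to 939.8 CPM. Schwann, rod and lymphocyte markers summed to at most 14.2 CPM each. No tested gene of these 7 lists was called higher in Ltbp2-Cyp26a1-Comp cells, and Emcn, Rpe65, Rlbp1 and Rgr were called lower. The list for trabecular meshwork, the drainage tissue of the eye's front, summed to 3286 and 3241 CPM, against 97.5 to 3429 CPM in the other subsets. In WT1 the sum of this list was above every other subset. Its member Chil1, a secreted chitinase-like protein, was at 2248 and 2133 CPM in Ltbp2-Cyp26a1-Comp cells against 922 and 767 CPM in the other subsets (1.38), and was called higher. Myoc of the same list was at 949 and 1030.0 CPM (0.70) and was not called. The other members did not go this way. Angptl7, which the rule uses for Angptl7-Cilp2-Cnmd cells, was at 88.8 and 77.5 CPM against 197.6 and 209.3 CPM (-1.28). Ppp1r1b, under the filter, was at 0.27 and 0.42 CPM. Sums of 3 keratocyte markers (1169.5 and 759 CPM) and 5 meningeal fibroblast markers (181 and 180.1 CPM) were within the range of the other subsets over both libraries, although in WT2 the keratocyte sum was below every other subset. Most of the keratocyte sum was Ptgds (1054.9 and 689.3 CPM), which was at 60697 CPM in RPE cells of WT1. Aldh3a1 went the other way, at 109.8 and 63.3 CPM against 55.6 and 37.4 CPM (0.86, not called). Kera, the last member, is used by the Kera-Thbs4 rule. The part of cells from neighbouring tissue in these levels was not tested.

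By Pearson r of log2(CPM + 1) over the 9573 genes, as a description across genes, Ltbp2-Cyp26a1-Comp cells were most like Angptl7-Cilp2-Cnmd cells on average, with 0.941 in WT1 and 0.952 in WT2. Crabp2-Ephb1-Nrk cells followed with 0.937 and 0.938, and Kera-Thbs4 cells with 0.946 and 0.929, so the order of these subsets was not the same in both libraries. Tfpi2-Tcf21-Alpl cells were least like them, with 0.859 and 0.868. Ltbp2-Cyp26a1-Comp cells of WT1 and WT2 had an r of 0.974. The points of such an r share library and depth.

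Set against Angptl7-Cilp2-Cnmd cells alone, Ltbp2-Cyp26a1-Comp cells had 289 of 9379 genes at least 2-fold higher in both libraries (3.08%) and 146 lower (1.56%), with a median log2 fold of 0.12 over all genes. The cytokine list lay on the higher side in this comparison: 12 of 18 genes were called higher and 0 lower, with a median of 1.65. Ccl2, a monocyte chemokine, was at 631 and 442 CPM in Ltbp2-Cyp26a1-Comp cells against 69.8 and 73.6 CPM in Angptl7-Cilp2-Cnmd cells (2.86 ± 0.42). Ptgs2, the inducible cyclooxygenase, was at 974 and 1134 CPM against 148.9 and 257 CPM (2.42 ± 0.40). Neither group overlapped the other for these genes. Of 36 growth factors and guidance cues, 11 were called higher and 4 lower (median 0.28). Among those higher were Kitl (the ligand of Kit), at 163.5 and 291 CPM against 26.9 and 57.3 CPM (2.44 ± 0.17), and Fgf7, at 56.3 and 49.0 CPM against 7.46 and 8.18 CPM (2.602 ± 0.22). Rgs5, a mural signalling gene, had the largest fold of the 15 genes named higher, at 563 and 726 CPM against 41.1 and 60.9 CPM (3.65 ± 0.14). In mural cells Rgs5 was at 8688 and 11188 CPM, and the part of mural RNA in its level was not tested.

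The genes lower in Ltbp2-Cyp26a1-Comp cells than in Angptl7-Cilp2-Cnmd cells included the following. Sfrp4, a secreted Wnt antagonist, was at 18.2 and 11.7 CPM in Ltbp2-Cyp26a1-Comp cells against 140.7 and 96.9 CPM in Angptl7-Cilp2-Cnmd cells (-2.92 ± 0.04). Mmp3 (stromelysin) was at 545 and 238.5 CPM against 1920.2 and 2005 CPM (-2.44 ± 0.88), with a gap that was wider in WT2. The list counts of this comparison stand against 3.08% of all genes higher and 1.56% lower. Of 23 genes of collagen maturation 2 were lower (Pcolce2 and Adamts2) and 1 higher (Plod2), and of 18 cartilage and tendon genes 3 were lower (Matn4, Cilp and Sparc) and 2 higher (Postn and Cytl1). Matn4 (a matrilin) was at 130.1 and 144.3 CPM against 628.5 and 809 CPM (-2.37 ± 0.15), and Pcolce2 (an enhancer of procollagen processing) at 86.4 and 103.3 CPM against 419.5 and 589.8 CPM (-2.39 ± 0.17). Sparc (a matricellular collagen-binding protein) was at 6175 and 5253 CPM against 17820 and 16760.1 CPM. Of 17 retinoic acid genes tested here, Rarb was called higher and Aldh1a1 lower (median -0.10). Cyp26b1 was not called against this subset, at 161.6 and 237.9 CPM against 80.2 and 136.6 CPM. Of 23 immediate early and heat shock genes, 5 were lower (Fos, Fosb, Jun, Hspa1a and Dnajb1; median -0.42), a difference in genes that cell dissociation is known to induce.

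Against Kera-Thbs4 cells, 216 of 9497 genes were higher (2.27%) and 191 lower (2.01%), with a median of 0.008. Cyp26b1 was at 161.6 and 237.9 CPM in Ltbp2-Cyp26a1-Comp cells against 26.4 and 27.6 CPM in Kera-Thbs4 cells (2.82 ± 0.35), with no overlap of the groups. Eln (elastin) was at 105.9 and 101.8 CPM against 24.7 and 21.0 CPM (2.14 ± 0.12), and Angpt1 (angiopoietin-1, a ligand of the endothelial receptor Tek) at 258 and 412 CPM against 46.5 and 124 CPM (2.09 ± 0.51). Of 32 mesenchymal transcription factors, 0 were higher and 5 lower (Tbx15, Scx, Mkx, Meox2 and Osr2), Scx and Mkx being tendon factors. Prg4 was at 54.4 and 51.7 CPM against 703.6 and 836 CPM (-3.83 ± 0.23), and Tac1 at 14.8 and 14.3 CPM against 522 and 307 CPM (-4.69 ± 0.51). Rpe65 and Rgr, RPE genes, were also lower in Ltbp2-Cyp26a1-Comp cells (-3.50 and -3.33). The RPE marker sum was 101.7 and 115.7 CPM there, against 603.5 and 2152 CPM in Kera-Thbs4 cells, and its part in other differences was not tested.

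Cells could be split by the gene that contributed most to the sum. Cyp26a1 led in 369 cells of WT1 (48.6%) and 452 of WT2 (29.6%), Comp in 316 (41.6%) and 760 (49.7%), and Ltbp2 in 54 (7.11%) and 269 (17.6%), with 21 and 48 tied. The balance thus differed between the libraries. Median depth was 13152 and 13100 UMIs in Cyp26a1-led cells and 14687.5 and 14505.5 UMIs in Comp-led cells. Cyp26a1 was at 1345 and 1119 CPM in Cyp26a1-led cells against 377 and 348 CPM in Comp-led cells, and Comp at 222 and 214 CPM against 2662 and 2515 CPM, as the split fixes.

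Of 9285 genes outside the rule, 72 were higher in Cyp26a1-led than in Comp-led cells (0.775%) and 37 lower (0.398%), with a median of 0.07. Gpc3 (glypican-3, a cell-surface heparan sulfate proteoglycan) was furthest higher, at 169.5 and 170.6 CPM in Cyp26a1-led cells against 29.8 and 50.5 CPM in Comp-led cells (2.104 ± 0.52). Interferon-induced genes were among the 15 furthest higher. Ifit1 was at 306 and 453 CPM in Cyp26a1-led cells against 101.7 and 117.6 CPM in Comp-led cells (1.76 ± 0.25), and Isg15 at 400.4 and 288 CPM against 122.1 and 115.0 CPM (1.51 ± 0.28). Of 18 cytokine and interferon-induced genes, 4 were called higher (Ccl11, Ifit1, Ifit3 and Isg15) and 0 lower (median 0.64). Rarb was also higher in Cyp26a1-led cells, at 23.9 and 20.8 CPM against 7.03 and 9.17 CPM (1.37), the only one of 16 retinoic acid genes called so. Acta2 did not separate the cells, at 830.5 and 673 CPM against 783 and 657.5 CPM (0.06).

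Cyp26b1 went the other way, at 76.8 and 128.2 CPM in Cyp26a1-led cells against 251.1 and 276 CPM in Comp-led cells (-1.40 ± 0.42), so the 2 breakdown enzymes differed in opposite directions, that of Cyp26a1 being set by the split. Chad was at 709.7 and 592.9 CPM in Cyp26a1-led cells against 1719 and 1279.5 CPM in Comp-led cells (-1.19). Dlk1 was at 97.5 and 57.9 CPM against 345 and 165.2 CPM (-1.66 ± 0.22), and Sparc was at 3615 and 3085 CPM against 9527 and 7016 CPM (-1.29 ± 0.15). Myoc (myocilin, a secreted protein of the trabecular meshwork) was at 600.0 and 541 CPM against 1336 and 1355 CPM (-1.24 ± 0.12). Of 16 cartilage and tendon genes tested, 0 were higher and 3 lower (Chad, Matn4 and Sparc; median -0.51), and of 24 Wnt genes 1 was higher (Fzd4) and 4 lower (Sfrp2, Sfrp4, Wif1 and Sost). These counts stand against 0.775% of all genes higher and 0.398% lower in the split. Hbb-bt, a globin of red blood cells, was also lower (-2.15 ± 1.54), with values of 37.6 and 12.3 CPM against 79.6 and 124.7 CPM.

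Rgs5 and Emcn, genes of mural and endothelial cells, differed with this split. Rgs5 was at 912.6 and 1172 CPM in Cyp26a1-led cells against 178 and 499 CPM in Comp-led cells (1.79 ± 0.79), and Emcn (endomucin, of capillary endothelium) at 96.5 and 91.1 CPM against 28.3 and 35.8 CPM (1.53 ± 0.29). Pecam1, which defines endothelium, was at 0.965 and 1.15 CPM in Cyp26a1-led cells against 1.03 and 1.17 CPM in Comp-led cells, and Kdr was at most 1.98 CPM in either. Emcn averaged 431 CPM in Tfpi2-Tcf21-Alpl fibroblasts. The part of mural and endothelial RNA in the split was not tested. By the same r over genes, Cyp26a1-led cells were most like Crabp2-Ephb1-Nrk cells (0.950 in both libraries) and less like Angptl7-Cilp2-Cnmd cells (0.918 and 0.930). Comp-led cells were most like Angptl7-Cilp2-Cnmd cells (0.954 and 0.960) and less like Crabp2-Ephb1-Nrk cells (0.907 and 0.925).

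**Figure D5:**
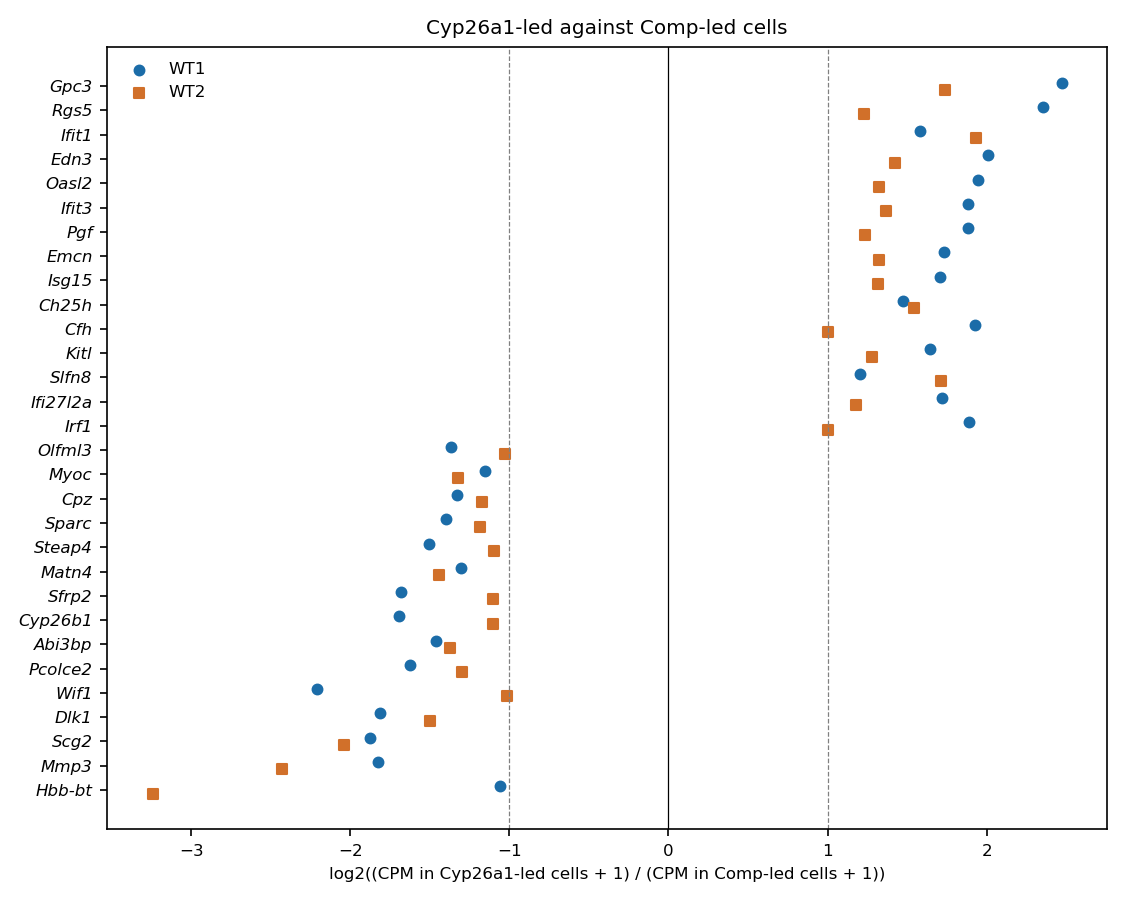
Log2 fold of Cyp26a1-led over Comp-led cells for the 15 genes furthest higher and the 15 furthest lower, 1 point per library, with dashed lines at 2-fold. Interferon-induced genes (Ifit1, Oasl2, Ifit3, Isg15) lie on the higher side and Cyp26b1, Dlk1, Sparc and Myoc on the lower side in both libraries.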

How the data were processed

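The authors deposited UMI counts per gene and cell barcode for each of the 2 libraries, as unfiltered matrices. Cell Ranger 4 wrote them, per the file headers, while the submitters' processing notes name Cell Ranger 2.1.1 and mm10. The gene annotation behind the counts is named neither in the headers nor in the labels (not given in the sources used here). Cells, fibroblasts and subsets were called on the deposited counts by the thresholds in the text. Counts were summed per subset and library, scaled to CPM and compared on log2(CPM + 1), with no test. Gene positions are from the GENCODE annotation of GRCm38 and promoters from RefSeq. The code was tested on simulated data. The genes named are the label's markers, the 15 furthest above (at least 50 CPM in the subset), the 10 furthest below (at least 50 CPM in the others), and in each of 18 lists the 4 called genes with the largest folds, plus members a count spells out. Results for 2 of these genes are not reported here. A few genes outside that rule (Lox, Chil1, Sostdc1, Thbs1, Nkd2 and others of the pathway lists) were named after their values were seen. In the pairwise comparisons the 15 furthest in each direction and list members were eligible. The members and lists were chosen with earlier results of these data known. Doublets were called with Scrublet in scanpy 1.11.5, and TMM factors computed with edgeR 4.0.16. Python 3.11.15, numpy 2.4.6, pandas 2.3.3, scipy 1.17.1, matplotlib 3.10.9 and R 4.3.3 were used. The labels state that 10000 cells were loaded per library, and 8497 and 13401 barcodes passed the thresholds. Alternatives changed the cell filters, doublets, marker sums, depth, free RNA, scaling, averaging of the other subsets, pseudocount, filter and library.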

Additional observations from a re-analysis of the deposited data

How the results depend on the processing

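The share of fibroblasts that were Ltbp2-Cyp26a1-Comp cells (20.88%) was 15.87% when the largest sum had to be at least 2 times the next and 15.5% after thinning to 3000 UMIs. The count of genes called higher (89) was 150 with all other fibroblasts pooled as the reference and 144 with the log2 values of the other subsets averaged. The count called lower (428) was 164 with the log2 values averaged, 249 with a pseudocount of 5 CPM and 231 with a filter at 20 CPM. With 1 library left out, the share was 18.19 to 23.57%, the higher count 113 to 121 and the lower count 479 to 647. The cause of these shifts was not tested. Under the other alternatives all 3 values stayed within their spread or within 1.5 times. Of 72 named genes called, all kept their direction under every alternative except Kcnj8, whose transcripts are removed by construction when cells with Rgs5 or Kcnj8 UMIs are left out. The fewest still at least 2-fold apart was 59 of 72, with the log2 values averaged. The alternatives that left out cells with epithelial transcripts (84 higher, 405 lower) or with Rgs5 or Kcnj8 UMIs (107 higher, 540 lower) were chosen after seeing the data. Each fold was taken within a library, and no paired test was made. With 2 pooled libraries, differences between animals were not estimated, and a share or level that differs between the libraries has no replicate check beyond that pair. Genes under 5 CPM were not tested.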
